A study of Homo sapiens with 6 samples.

Results

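The chromosome 19 ZNF genes are 234 protein-coding genes that the deposited tables place on chromosome 19 and whose symbols are ZNF followed by a digit, out of 26389 genes in the count table. They were compared between HepG2 cells, a human hepatocellular carcinoma line, transfected with a short hairpin RNA plasmid against TCTP (shTCTP, 3 libraries) and HepG2 cells transfected with a control hairpin plasmid (shCtrl, 3 libraries). TCTP is the translationally controlled tumour protein, encoded by TPT1. All cells were grown in DMEM with 10% fetal bovine serum and received the plasmid with Lipofectamine 2000. The labels give a harvest at 48 h for quantitative PCR only, name no hairpin sequence and no share of transfected cells. They do not say whether the libraries are separate cultures, so the p-values measure spread among libraries that may be technical only.

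C2H2 zinc finger proteins bind DNA through repeated fingers, each folded round a zinc ion held by a pair of cysteines and a pair of histidines. Most ZNF proteins of chromosome 19 carry a KRAB domain ahead of the fingers. It recruits TRIM28 (KAP1), which brings the histone methyltransferase SETDB1 and heterochromatin proteins to the bound site, and many of these proteins silence transposable elements. The genes arose by tandem duplication, lie in clusters and are known for low, short-lived messages.

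Among the 232 members with a protein-coding GENCODE transcript, the longest reading frame held between 0 and 31 fingers by pattern, with a median of 12. ZNF91, which silences SVA and L1 elements in primate cells, held the 31, and ZNF850 held 29. No finger matched the spacing searched in ZNF321P and ZNF738. A KRAB-A pattern was found in 194 of the 232 members. The finger-coding stretches that follow show what the family shares. Each is the first finger of the GENCODE 29 transcript with a TGE linker, 84 bases, and capitals mark the codons of the zinc-binding cysteines and histidines. ZNF274 is shown as the member that passed the test, ZNF787 as the one with the highest level per length, ZNF91 as the one with most fingers, and ZNF587 and ZNF417 as a pair that shares long stretches of sequence.
ZNF274: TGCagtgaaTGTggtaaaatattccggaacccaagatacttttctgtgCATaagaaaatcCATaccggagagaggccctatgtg
ZNF787: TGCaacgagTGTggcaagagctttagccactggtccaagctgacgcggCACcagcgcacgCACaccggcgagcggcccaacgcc
ZNF91: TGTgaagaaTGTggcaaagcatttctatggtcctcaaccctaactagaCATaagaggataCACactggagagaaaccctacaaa
ZNF587: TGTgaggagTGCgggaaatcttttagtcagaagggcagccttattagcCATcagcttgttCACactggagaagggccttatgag
ZNF417: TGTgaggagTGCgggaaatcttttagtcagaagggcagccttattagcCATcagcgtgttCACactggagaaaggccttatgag
ZNF587 and ZNF417 differed at 2 of these 84 bases, whereas ZNF274 and ZNF91 differed at 36. Over the longest transcript of each member, 64 of the 234 held at least 1 stretch of 150 bases, the read length, that a transcript of another gene also holds. In 24 members such stretches made up over 10% of the transcript. How the authors assigned reads that match several genes is not given in the sources used here, so values of these members are uncertain. A further limit is overlap: 133 members overlap another counted gene on either strand, and although the libraries were directional, whether counting used strand is not given either.

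The libraries held 30486409, 29735626 and 25427614 reads assigned to genes in shTCTP cells and 29969485, 30157731 and 30348435 in shCtrl cells. shTCTP library 3 stood apart, its correlation with the remaining 5 averaging 0.977 across genes, against 0.986 to 0.987 for the others. It also had reads for the fewest genes, 18833 against 20472 to 21036. Its TMM scaling factor was 1.17, against 0.919 to 1.02. TPT1, the targeted gene, stood at 2032, 1806 and 1559 CPM (reads scaled to library size with TMM factors) in shTCTP cells and 2575, 2249 and 2290 CPM in shCtrl cells. Its groups did not overlap, but the difference did not pass over all genes (log2 fold change -0.40, SE 0.17, edgeR adjusted p = 0.396), and an exact permutation test, two-sided, reached p = 0.1, the lowest possible with 3 libraries against 3. Hepatocyte markers were abundant, as the label HepG2 requires, with a summed level of 13160 to 15810 CPM over 9 markers in shTCTP cells and 17050 to 17430 CPM in shCtrl cells. All 9 were detected in every library. SERPINA1, the largest part of the sum, gave 7623, 6871 and 6819 CPM in shTCTP cells and 8303, 9036 and 8490 CPM in shCtrl cells. HNF4A and TTR also had every shTCTP library below every shCtrl library, but for TTR the nearest were 172.6 CPM in shTCTP and 172.8 CPM in shCtrl cells. For ALB, AFP, APOA1, APOB, FGB and FOXA2 the groups overlapped. FOXA2 gave 52.2, 65.8 and 67.3 CPM in shTCTP cells and 56.4, 49.0 and 50.9 CPM in shCtrl cells. Fibroblast markers summed to 12.02 to 15.47 CPM in shTCTP cells and 11.7 to 14.2 CPM in shCtrl cells, leukocyte markers to 2.33 to 3.77 CPM in shTCTP cells and 3.61 to 5.31 CPM in shCtrl cells, and endothelial markers to at most 0.659 CPM in any library. The fibroblast sum was mostly PDGFRB, at 11.0 to 13.5 CPM over the 6 libraries, with COL1A1 at most 1.25 CPM and COL3A1 at most 0.675 CPM. CD3E, which defines T cells, was at 0 in 5 of the 6. In such bulk samples fewer cells of a type and less RNA per cell cannot be told apart. The part of the difference in the hepatocyte marker sum in the results that follow was not tested.

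The members were weakly expressed in every library. Together they took 0.0825%, 0.0946% and 0.103% of reads in the shTCTP libraries and 0.0890%, 0.0805% and 0.0851% in the shCtrl libraries. Their summed level was 861.9, 946.4 and 884.4 CPM in shTCTP cells and 874.2, 842.1 and 927.4 CPM in shCtrl cells, so the groups overlapped. Between 214 and 225 of the 234 members had at least 1 read in a given library. Per length, 192 of the 232 members with a length-scaled value averaged under 1 FPKM (the length-scaled unit the authors deposited).

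Expression was uneven within the family. Of 183 members that passed the filter on low counts (edgeR filterByExpr), the median of the mean level was 0.318 FPKM, against 2.73 FPKM over all 14197 tested genes. The 51 members that did not pass averaged at most 0.373 CPM, and 37 of them had 10 reads or fewer in every library. The 8 members with the highest mean FPKM were ZNF787, ZNF581, ZNF444, ZNF428, ZNF580, ZNF358, ZNF524 and ZNF579, from 43.7 FPKM for ZNF787 to 6.20 FPKM for ZNF579. All 8 lack the KRAB-A pattern, and by pattern they hold 1 to 9 fingers. The 31 tested members without the KRAB-A pattern had a median mean level of 2.76 FPKM, and the 150 with it 0.266 FPKM.

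ZNF787 gave 150.9, 169.5 and 130.9 CPM in shTCTP cells and 150.4, 155.3 and 181.9 CPM in shCtrl cells. The groups overlapped, and the log2 fold change was -0.11 (95% confidence interval -0.40 to 0.18). ZNF428 gave 37.8, 36.5 and 35.7 CPM in shTCTP cells and 34.9, 38.2 and 38.9 CPM in shCtrl cells (log2 fold change -0.03, 95% confidence interval -0.29 to 0.24). ZNF581 averaged 51.4 ± 4.44 CPM in shTCTP cells and 58.4 ± 9.58 CPM in shCtrl cells (SD, n = 3 each), and ZNF444 averaged 54.5 ± 9.08 CPM in shTCTP cells and 52.6 ± 11.1 CPM in shCtrl cells (SD, n = 3 each). For all 8 abundant members the groups overlapped and none passed (edgeR adjusted p from 0.700 to 0.989).

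The comparison of shTCTP with shCtrl cells asked whether the family's messages differed with the TCTP hairpin. ZNF274 rose, and the family as a whole centred near no difference. With edgeR's quasi-likelihood test and a threshold of 0.05 on the adjusted p, 1 of 183 tested members was higher and 0 were lower, where 1.26% of all tested genes were higher and 0.148% lower (1.41% in either direction). At an unadjusted p under 0.05 there were 11 members higher and 3 lower, or 7.65%, against 11.1% of all tested genes. DESeq2 and limma voom also called 1 higher and 0 lower. The single call is 0.546% of the members, so both shares lay under those of all tested genes.

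ZNF274 (ENSG00000171606.17, GRCh38 chromosome 19, 58183029 to 58213562, plus strand) is a KRAB zinc finger protein with 5 fingers by pattern, known for bringing SETDB1 to the 3′ ends of other zinc finger genes. It had 490, 458 and 573 reads in shTCTP cells and 335, 306 and 235 reads in shCtrl cells. These correspond to 16.8, 15.4 and 19.4 CPM in shTCTP cells, against 11.0, 10.6 and 8.43 CPM in shCtrl cells. Every shTCTP library lay above every shCtrl library, shTCTP library 3 being highest and shCtrl library 3 lowest. The mean was 17.2 ± 2.002 CPM in shTCTP cells and 10.0 ± 1.38 CPM in shCtrl cells (SD, n = 3 each), a 1.71-fold difference (log2 fold change 0.78, SE 0.16, 95% confidence interval 0.43 to 1.13, edgeR adjusted p = 0.0253). No 150-base stretch of its longest transcript occurs in another gene's transcripts, and no other counted gene overlaps it.

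The ZNF274 call did not hold in every fit. Without shCtrl library 1, 2 or 3 the edgeR adjusted p was 0.0746, 0.112 or 0.172, with log2 fold changes of 0.85, 0.82 and 0.67. Leaving out shTCTP library 1, 2 or 3 kept the call (edgeR adjusted p = 0.0438, 0.0402 and 0.00900), so it did not rest on the library that stood apart. On the log2(FPKM + 1) and log2(FPKM + 0.1) scales limma gave an adjusted p of 0.117 and 0.0741.

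The ZNF274 promoter is shown because it belongs to the member that passed. It is the window of 250 bases before to 50 after the RefSeq gene start (GRCh38.p14, plus strand), which is not the same base as the GENCODE start given above. Matches to GGGCGG (the GC box) and CCGGAAG (the core of ETS family sites) on either strand are in capitals.
chr19:58182811-58183110: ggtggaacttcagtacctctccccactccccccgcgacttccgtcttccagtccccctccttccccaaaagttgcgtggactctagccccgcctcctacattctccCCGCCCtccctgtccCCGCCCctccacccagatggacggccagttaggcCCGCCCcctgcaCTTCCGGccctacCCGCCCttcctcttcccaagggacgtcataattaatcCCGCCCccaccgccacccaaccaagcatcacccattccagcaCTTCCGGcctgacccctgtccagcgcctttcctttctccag
It held 5 matches to GGGCGG, 2 to CCGGAAG and 0 to TATAAA, and no match overlapped another. RefSeq windows were found for 205 of the 234 members, 250 windows in all. CCGGAAG occurred in 39.2% of these windows, in 29.5% of windows of ZNF genes on other chromosomes, in 14.6% of those of the other protein-coding genes of chromosome 19, in 14.6% of those of protein-coding genes in the count table and in 10.3% of all windows. GGGCGG occurred in 64.8% of member windows, against 72.2% for the other protein-coding genes of chromosome 19, 58.7% for ZNF genes on other chromosomes, 62.2% for protein-coding genes in the count table and 45.0% of all windows. TATAAA occurred in 2.80% of member windows, against 5.84% for the other protein-coding genes of chromosome 19, 5.17% for ZNF genes on other chromosomes, 7.25% for protein-coding genes in the count table and 11.5% of all windows. A match describes these letters and is not evidence of binding.

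**Figure D1:**
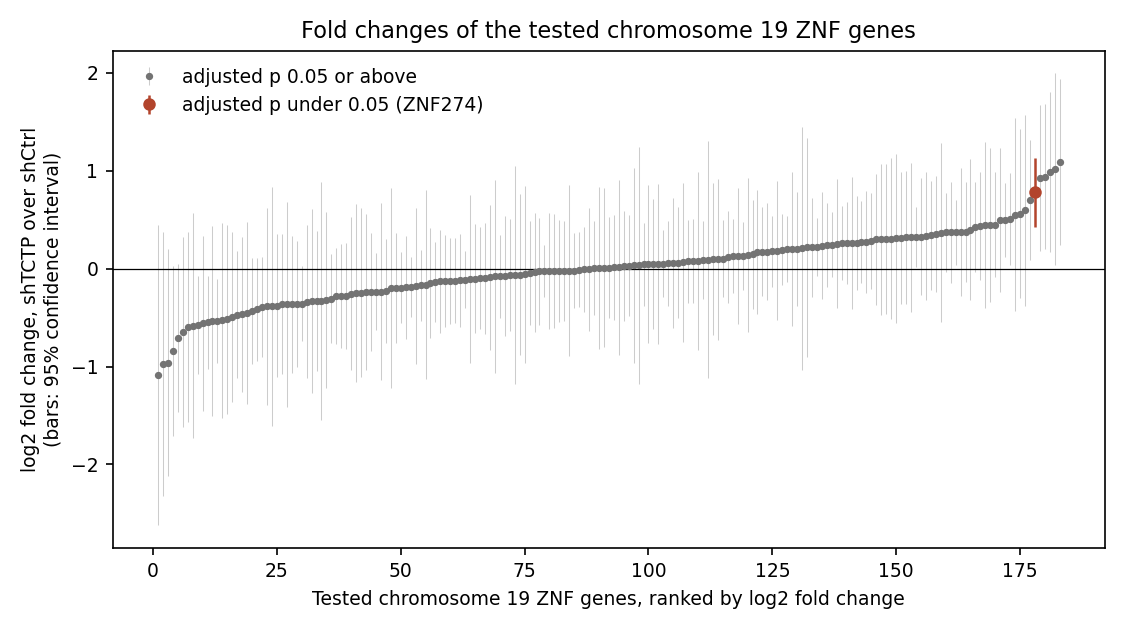
Log2 fold changes (shTCTP over shCtrl, vertical axis) of the 183 tested chromosome 19 ZNF genes in rank order (horizontal axis), with 95% confidence intervals as bars. ZNF274, in red at 0.78, is the only member with an adjusted p under 0.05, and the others spread to both sides of 0.

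Other members whose libraries separated by group did not pass. Among tested members, 16 had every shTCTP library above every shCtrl library (9.83% of all tested genes did) and 9 had every one below (7.30% of all tested genes), 13.7% in all against 17.1% of all tested genes. ZNF473, a component of the U7 snRNP machinery that processes histone messages, gave 11.1, 8.91 and 12.8 CPM in shTCTP cells and 8.46, 7.28 and 7.54 CPM in shCtrl cells. The nearest libraries of its groups were close, and its log2 fold change was 0.50 (SE 0.18, edgeR adjusted p = 0.255). ZNF419 gave 4.01, 3.60 and 2.84 CPM in shTCTP cells and 2.39, 2.39 and 2.55 CPM in shCtrl cells (log2 fold change 0.51, SE 0.22). ZNF317 averaged 17.1 ± 1.11 CPM in shTCTP cells and 13.7 ± 0.710 CPM in shCtrl cells (SD, n = 3 each), ZNF296 averaged 9.13 ± 0.701 CPM in shTCTP cells and 7.07 ± 1.54 CPM in shCtrl cells, and ZNF416 averaged 6.47 ± 0.494 CPM in shTCTP cells and 5.40 ± 0.406 CPM in shCtrl cells. The log2 fold change of ZNF296 was 0.37, and 0.20 without shCtrl library 2. Of these 5, the edgeR adjusted p ran from 0.255 to 0.641. ZNF473 overlaps VRK3 on the other strand.

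In the other direction, ZNF69 gave 1.85, 1.92 and 1.62 CPM in shTCTP cells and 2.43, 2.67 and 2.94 CPM in shCtrl cells (log2 fold change -0.58, SE 0.24, edgeR adjusted p = 0.360). Every shTCTP library was below every shCtrl library. ZNF587, which with ZNF417 represses HERV-K elements in human cells, gave 3.12, 3.70 and 3.71 CPM in shTCTP cells and 6.76, 4.58 and 4.06 CPM in shCtrl cells, where shCtrl library 1 was far above the rest. Its log2 fold change was -0.55 (SE 0.22, edgeR adjusted p = 0.361), and it was -0.30 without shCtrl library 1. It is also uncertain because 8.72% of its 150-base stretches occur in ZNF417. ZNF417 itself averaged 0.870 CPM over the 6 libraries, with a log2 fold change of 0.19 (SE 0.34). ZNF552 averaged 4.06 ± 0.622 CPM in shTCTP cells and 5.87 ± 0.794 CPM in shCtrl cells (SD, n = 3 each, log2 fold change -0.53), and 7.76% of its stretches occur in ZNF814. ZNF57 and ZNF700 stood at log2 fold changes of -0.39 and -0.36, and neither passed. Without shCtrl library 1 the value of ZNF700 was -0.23.

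**Figure D2:**
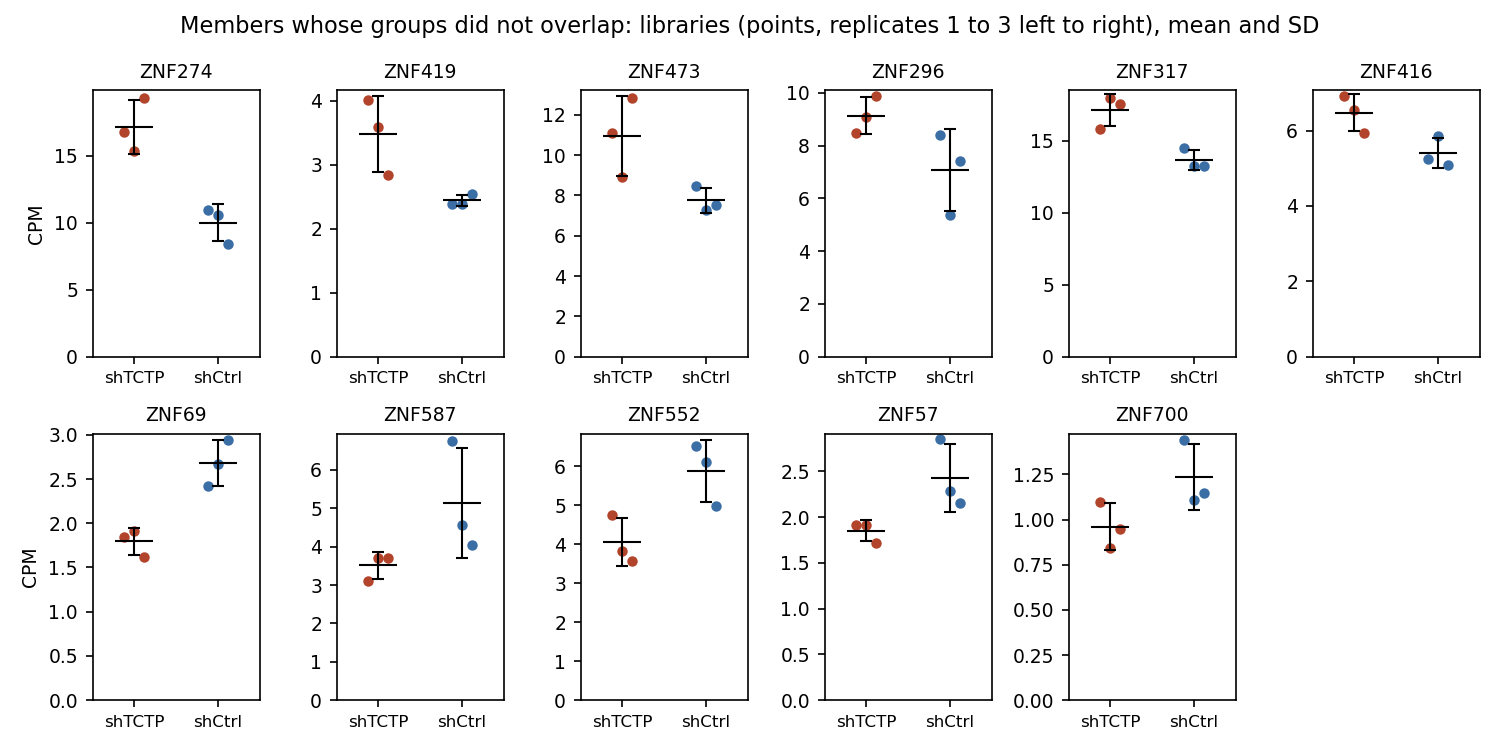
CPM per library (points), mean and SD (bars) in shTCTP (left) and shCtrl cells (right) for the 11 members with a mean of at least 1 CPM, no overlap between groups and the largest differences each way. ZNF274 runs from 15.4 to 19.4 CPM in shTCTP cells and from 8.43 to 11.0 CPM in shCtrl cells, and only its difference passed the test.

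The largest estimates belonged to scarce messages. A log2 fold change of at least 1 in size was found for 3 tested members, ZNF805 at 1.09, ZNF708 at 1.02 and ZNF836 at -1.09, named here after their values were seen, with edgeR adjusted p of 0.275, 0.424 and 0.626. ZNF805 gave 0.993, 0.774 and 1.52 CPM in shTCTP cells and 0.754, 0.347 and 0.431 CPM in shCtrl cells. Next in size were ZNF577 at 0.99, ZNF442 at -0.97, ZNF816 at -0.96, ZNF430 at 0.94 and ZNF66 at 0.93. In all 5 members with estimates above 0.9, shTCTP library 3 was the highest of the 6, and without it the estimates were 0.79 for ZNF805, 0.69 for ZNF708, 0.60 for ZNF577, 0.51 for ZNF430 and 0.60 for ZNF66. ZNF836 and ZNF442 were at 0 CPM in shTCTP library 3, and without it their estimates were -0.50 and -0.39, while that of ZNF816 was -1.55. Leaving out another library made the fall of ZNF836 larger, -2.83 without shTCTP library 2, and that of ZNF816 smaller, -0.44 without shCtrl library 2. Without shTCTP library 3 the members with an unadjusted p under 0.05 were 5 higher and 6 lower. shTCTP library 3 was the highest library for 25.7% of tested members and for 27.4% of all tested genes, and the lowest for 23.5% of members and 22.5% of all tested genes. shCtrl library 1 was the lowest for 8.74% of tested members against 16.4% of all tested genes. For shCtrl library 2 these shares were 20.8% and 13.9%, and for shCtrl library 3 20.2% and 16.3%. The members' median log2 deviation from each gene's mean over the 6 libraries was 0.071, -0.002 and -0.080 in shCtrl libraries 1 to 3. It was 0.015, 0.027 and 0.010 in shTCTP libraries 1 to 3.

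How small a difference the counts could show depended on level. The median SE of the log2 fold change was 0.289 for tested members and 0.184 for all tested genes. For 117 of the 183 members (63.9%) the 95% confidence interval lay within a 2-fold change in either direction, against 81.0% of all tested genes. Among the 92 members in the upper part of mean CPM the number was 87, and among the 91 in the lower part 30. Intervals of the remaining 66 members, ZNF274 among them, reached past a 2-fold change.

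**Figure D3:**
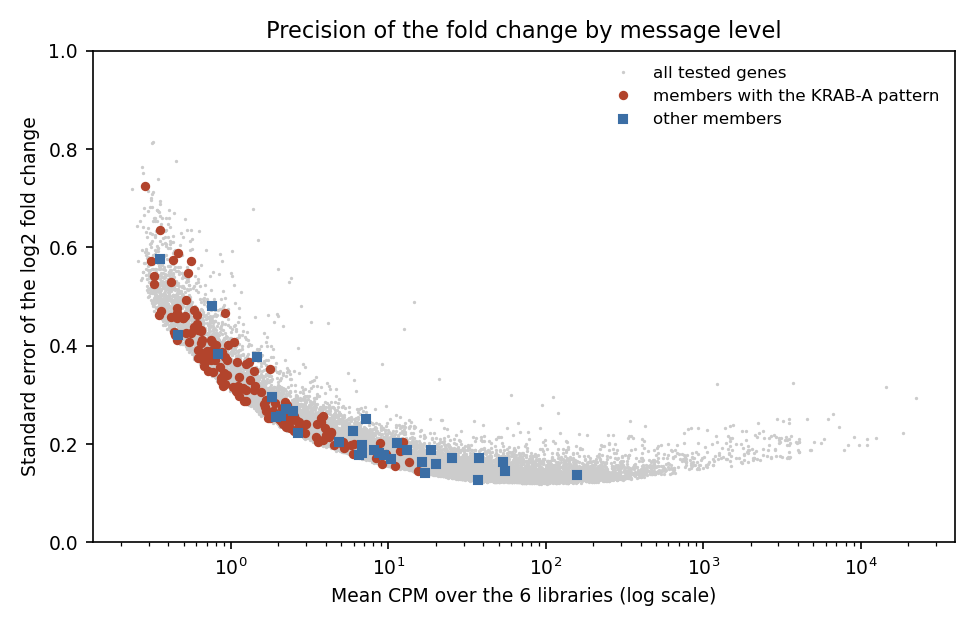
Standard error of the log2 fold change (vertical axis) against mean CPM over the 6 libraries (horizontal log axis) for all tested genes (grey), members with the KRAB-A pattern (red circles) and other members (blue squares). The median error was 0.318 for members with the pattern and 0.188 for those without.

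The family's log2 fold changes had a median of 0.01 (quartiles -0.23 and 0.25), with 95 of 183 above 0. Over all tested genes the median was 0.00 (quartiles -0.16 and 0.18), with 49.6% above 0. The 195 tested ZNF genes of other chromosomes, chosen by the same naming, had a median of 0.11 with 129 above 0, and 2 of them (1.03%) passed, both higher. These were ZNF335, a subunit of histone H3 lysine 4 methyltransferase complexes (36.4 ± 2.25 CPM in shTCTP cells and 23.0 ± 0.727 CPM in shCtrl cells, SD, n = 3 each, log2 fold change 0.66), and ZNF777 (log2 fold change 0.56). ZNF335 missed the threshold without any 1 shCtrl library or shTCTP library 2, and ZNF777 without any 1 of the 6 libraries. Both also missed it on both log2 FPKM scales with limma, and ZNF777 with limma voom and with RLE normalization (adjusted p = 0.0550 and 0.0503). The other 783 tested protein-coding genes of chromosome 19 had a median of -0.03. Of them 14 (1.79%) were higher and 3 lower, where 1.26% of all tested genes were higher and 0.148% lower. The differences between the medians of these groups carry no test.

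**Figure D4:**
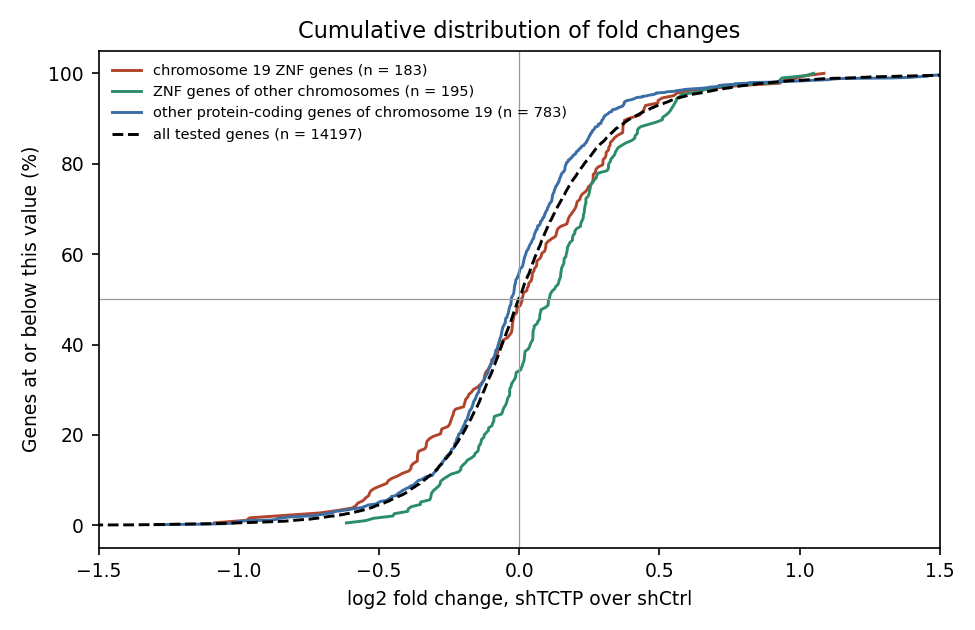
Cumulative share of genes (vertical axis, %) at or below each log2 fold change (shTCTP over shCtrl, horizontal axis) for chromosome 19 ZNF genes, ZNF genes of other chromosomes, the other protein-coding genes of chromosome 19 and all tested genes. The members cross 50% at 0.01 and the ZNF genes of other chromosomes at 0.11.

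Features of the proteins were not accompanied by large differences. Tested members with the KRAB-A pattern had a median log2 fold change of 0.01 (150 genes) and those without it -0.01 (31 genes). Members with 9 fingers or fewer had a median of -0.01 (50 genes), those with 10 to 15 one of 0.04 (92 genes), and those with 16 or more one of -0.06 (39 genes). The 51 tested members with stretches shared with another gene had a median of -0.12, with 17 above 0. The 132 without had one of 0.05, with 78 above 0. In none of the 18 alternative analyses was the median of the members with shared stretches above 0 (-0.17 to -0.01), or that of the others below 0 (0.01 to 0.14). Members overlapping another counted gene and members overlapping none both had a median of 0.01. The difference by shared stretches was noticed in the data, among splits by level, KRAB-A pattern, fingers, overlap and position, and was not tested. The alternatives draw on the same libraries, so the repeated signs are no independent evidence.

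Along the chromosome the members formed 15 groups separated by gaps of over 1000000 bases between gene starts. The 7 groups with 10 or more members held 214 of the 234 genes. The 55 members from ZNF628 to ZNF446, at the end of the long arm (GRCh38 55476332 to 58481230), included ZNF787, ZNF581, ZNF444, ZNF580 and ZNF274 and summed to 505 ± 40.6 CPM in shTCTP cells and 504 ± 41.8 CPM in shCtrl cells (SD, n = 3 each). Each of the other 6 large groups summed to at most 84.4 CPM on average in either kind of cell. The 31 members from ZNF101 to ZNF254 on the short arm, the ZNF91 cluster, summed to 35.0 ± 1.76 CPM in shTCTP cells and 35.1 ± 2.41 CPM in shCtrl cells (SD, n = 3 each). ZNF91 gave 2.81, 2.05 and 2.06 CPM in shTCTP cells and 2.0004, 2.29 and 2.58 CPM in shCtrl cells, and its groups overlapped.

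The group from ZNF653 to ZNF791 on the short arm (27 members, GRCh38 11483427 to 12640098) had the lowest median of the 7. Its 21 tested members had a median log2 fold change of -0.24 with 7 above 0, and none passed. The medians of the other 6 large groups ran from -0.00 to 0.06. Smaller groups had medians from -0.31 (ZNF302 to ZNF792, 4 tested) to 0.50 (ZNF473, 1 tested). The group from ZNF653 to ZNF791 is described because its median was the lowest of the 7, and its difference was not tested. Its values ran from -0.97 for ZNF442 (-0.39 without shTCTP library 3, where its level was 0) to 0.38 for ZNF627 (0.23 without that library). The summed level was 37.2 ± 1.80 CPM in shTCTP cells and 39.5 ± 2.87 CPM in shCtrl cells (SD, n = 3 each), a difference smaller than the SD in shCtrl cells. The median was below 0 in all 18 alternatives, from -0.30 without shCtrl library 3 to -0.03 on the log2(FPKM + 1) scale. It was -0.15 without shTCTP library 3 and -0.14 without shCtrl library 1. These alternatives draw on the same libraries that singled out the group, so the repeated sign is no independent evidence. Several of its genes share sequence with genes that overlap them, ZNF625-ZNF20 in 94.0% of its 150-base stretches and ZNF564 in 80.6%.

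**Figure D5:**
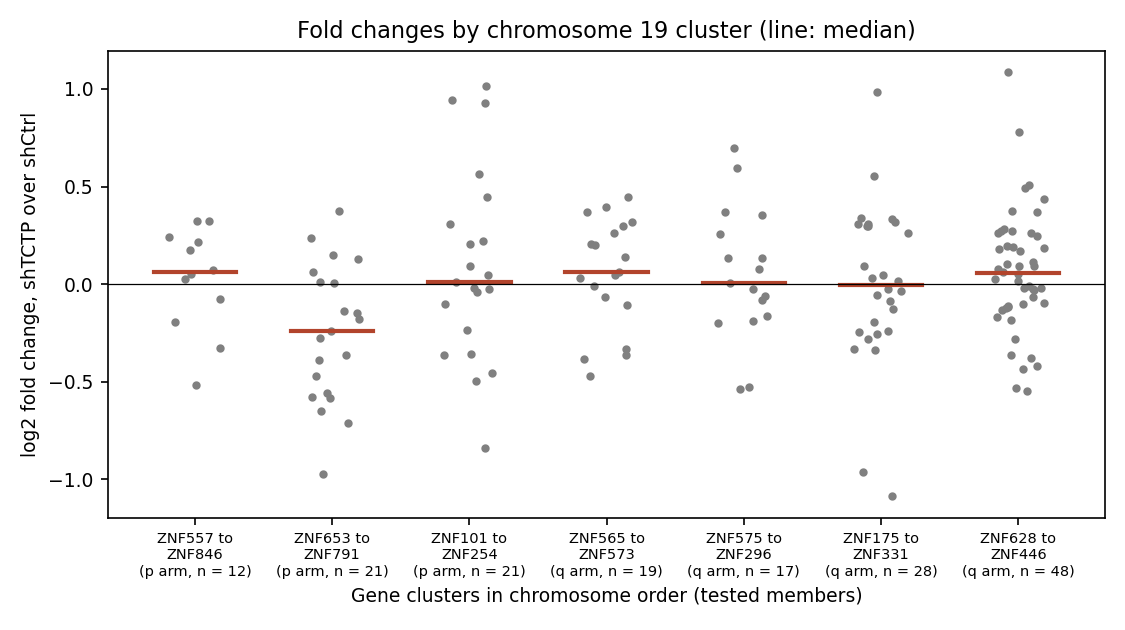
Log2 fold changes (shTCTP over shCtrl, vertical axis) of tested members in the 7 chromosome 19 groups with 10 or more members, in chromosome order (horizontal axis), with the median as a line. The group from ZNF653 to ZNF791 has a median of -0.24, and the others lie between -0.00 and 0.06.

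Messages of the proteins with which KRAB members act had a median level of 8.28 FPKM, against 0.318 FPKM for tested members, and none passed. Of 40 genes of the KRAB corepressor pathway all 40 were tested, and 0 were higher and 0 lower by the edgeR quasi-likelihood test. Over all tested genes 1.26% were higher and 0.148% lower, so 0 calls among 40 genes lies near those shares. The median log2 fold change of the 40 was 0.00 with 20 above 0. At an unadjusted p under 0.05 there was 1 of the 40, or 2.5%, against 11.1% of all tested genes. It was GATAD2A, a subunit of the NuRD complex (81.5 ± 10.5 CPM in shTCTP cells and 66.2 ± 1.94 CPM in shCtrl cells, SD, n = 3 each, log2 fold change 0.30). TRIM28 stood at 397 ± 49.2 CPM in shTCTP cells and 425 ± 40.5 CPM in shCtrl cells (SD, n = 3 each, log2 fold change -0.10). SETDB1 stood at 14.97 ± 0.968 CPM in shTCTP cells and 17.1 ± 1.43 CPM in shCtrl cells (SD, n = 3 each, log2 fold change -0.19). The DNA methyltransferase gene DNMT3B had a log2 fold change of 0.30 (0.20 without shCtrl library 3) and did not pass. For all 40 genes the 95% confidence interval lay within a 2-fold change.

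Chromosome 19 zinc finger genes with other names (ZFP, ZSCAN, ZIM and the like) numbered 16, of which 10 were tested, with a median of -0.04. None passed, where 1.41% of all tested genes did. ZFP82 stood at 0.76 and ZIM2 at -0.51 on the log2 scale, both short of the threshold. Without shTCTP library 3 ZFP82 was at 0.45, and with another library left out at up to 0.95. Textbook short-lived messages of the early response were set beside the members because both kinds are known to decay fast. Of 32 tested, 18 (56.2%) rose and 0 fell, against 1.26% and 0.148% of all tested genes. Their median log2 fold change was 0.99, and ATF3, DUSP1, PPP1R15A and FOS were among those that rose. Their median level was 41.1 CPM against 1.65 CPM for tested members, and their median SE 0.156 against 0.289. The counts of calls in the list and in the family are therefore not on an equal footing. That list was drawn up with these genes already known to be higher in these libraries, so it is no independent evidence, and message half-lives were not measured here.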

How the data were processed

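Polyadenylated RNA of 6 HepG2 libraries was read as 150-base pairs, per the labels' protocols. The files hold the authors' read counts for each gene, and the FPKM that the authors deposited for each gene. The submitters' processing notes name bcl2fastq, TopHat2, edgeR and GRCh38, with no versions. The annotation and the assignment of reads are not stated in these sources.

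Counts were tested with edgeR 4.0.16 in R 4.3.3 (quasi-likelihood, filterByExpr, TMM, robust, group as the only term), with Benjamini-Hochberg adjustment over all 14197 tested genes and a threshold of 0.05. Log2 fold changes are shTCTP over shCtrl. Alternatives used limma 3.58.1 and DESeq2 1.42.0. All 234 members were found in GENCODE 29, which gave coordinates, longest reading frames and shared stretches. No protein table was used: fingers and the KRAB-A pattern were searched in the translated frames. The KRAB-A pattern was widened after seeing which members matched, without reference to fold changes, and it misses divergent domains. The splits by shared stretches and overlap, the promoter motifs and the printed stretches were likewise chosen after the data had been seen.

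Named members were those past the threshold, up to 6 of the largest separated differences each way with a mean of at least 1 CPM, the 8 with the highest FPKM and those with most or fewest fingers. From each other list, genes past the threshold or with the smallest p were named. The members and lists were chosen with earlier results of these data known. Tested on simulated data of 14003 genes, the procedure found 24% of 1.5-fold, 74% of 2-fold and 100% of 4-fold differences between shTCTP and shCtrl. Of its calls, 6.2% were false. The changed genes were drawn from all tested genes, whose median level was 9.81 CPM against 1.65 CPM for tested members. These shares therefore do not give what would be found among the members. No libraries within a group were near-identical, with a chi-square of at least 14.96 per degree of freedom.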

Additional observations from a re-analysis of the deposited data

How the results depend on the processing

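The count of all changed genes was 200. It was 314 with DESeq2, 317 with no filter, 130 with the replicate block and 79 to 343 with 1 library left out. The number of members higher was 1. It was 0 under the replicate block and with limma on the log2(FPKM + 1) and log2(FPKM + 0.1) scales, and 0 to 1 with 1 library left out (0 without any 1 shCtrl library). No member was lower in any of the 18 alternatives. The family's median log2 fold change of 0.01 was 0.077 on the log2(FPKM + 0.1) scale, where that of all tested genes was 0.091, and -0.031 to 0.081 with 1 library left out. ZNF274 kept a positive log2 fold change in all 18 alternatives, and its edgeR adjusted p with the replicate block was 0.0655, against 0.0613 for ZNF335 and 0.149 for ZNF777. TPT1 kept a negative one, short of the threshold, in all 18.

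The labels do not say whether same-numbered libraries share a batch. Deviations from the group mean of same-numbered libraries correlated at -0.23, 0.0015 and -0.20 across genes. No shTCTP library correlated best with its own number. In groups this small the deviations are tied to each other, so this check cannot show whether libraries were paired. Of the 47 genes refitted under each alternative whose filter they passed, signs turned for 7, with estimates between -0.10 and 0.09. ZNF428 was 0.009 with the GC correction, 0.019 with the length correction, 0.079 on the log2(FPKM + 0.1) scale, 0.077 on the log2(FPKM + 1) scale and -0.073 to 0.002 with 1 library left out. ZNF524 was 0.055, 0.036, 0.104 and 0.090 under the same 4, 0.004 with limma voom and -0.119 to 0.156 with 1 library left out. With 1 library left out ZNF444 ran from -0.076 to 0.230 and ZNF579 from -0.147 to 0.241. ZNF91, at 0.01, was -0.050 with the GC correction, -0.035 with the length correction, -0.001 with no filter, -0.000 with DESeq2 and RLE, and -0.156 to 0.103 with 1 library left out. ZNF738, at -0.04, was 0.050 on the log2(FPKM + 0.1) scale, 0.023 on the log2(FPKM + 1) scale and -0.166 to 0.046 with 1 library left out. TRIM28, at -0.10, was 0.002 on both FPKM scales. The cause of these turns was not tested. Among the 7, TRIM28 averaged 397 CPM in shTCTP cells and 425 CPM in shCtrl cells, and ZNF91 2.31 and 2.29 CPM. As a separate limit, the median SE was 0.390 for members in the lower part of mean CPM and 0.226 for those in the upper part.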
